A study of Homo sapiens with 4 samples.

Results

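The genes described here encode Integrator and the cleavage and polyadenylation machinery, the factors that cut nascent RNA at its 3′ end. They were chosen by gene symbol from 2 named machineries, 14 Integrator subunit genes and 22 genes of cleavage, polyadenylation and termination, 36 of the 63241 genes in the deposited table. Earlier results of these data were known when they were chosen. Each of the 36 matched 1 row by its current symbol. The cells were 22Rv1, a castration-resistant prostate carcinoma line. They had received 40 nM JMC45, a small molecule aimed at CDK9 that the series title calls a degrader and names D45 (taken here as the same compound), or the DMSO vehicle, for 12 h. There were 2 libraries of poly(A)-selected RNA in each group, all from the same line with no genetic change named, and the labels do not say whether they came from separate cultures, so every p-value reflects only how far these libraries differ, which could be technical variation.

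RNA polymerase II transcripts are released by cleavage. At most protein-coding genes CPSF reads the AAUAAA signal, CstF and CFI bind elements around it, CPSF3 cuts, poly(A) polymerase adds the tail, and XRN2 digests the RNA still attached to the polymerase, while CFII (PCF11 and CLP1) and SSU72 act with the polymerase tail during termination. Integrator carries its own nuclease, INTS11, and the phosphatase PP2A. It forms the 3′ ends of small nuclear RNAs and also terminates polymerases paused near promoters, where PP2A opposes phosphorylation by CDK9, the kinase of P-TEFb.

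Values are TPM, transcript abundance corrected for length and scaled to the same total in each library, so levels of different genes can be compared on this scale. The sequencing depth is unknown, and no spike-in was analysed here, so a fold change is a change in share. Neither the number of cells nor the total RNA per cell can be read from it. The luminal and line markers KLK3, HOXB13, EPCAM, KRT8, KRT18 and FOXA1 were all detected, from 9.89 to 221 TPM over the libraries. Of 4 leukocyte, 3 endothelial and 4 fibroblast markers the highest value in any library was 1.12, 0.01 and 5.36 TPM, with CD3E and CDH5 at 0 in all 4 libraries. Most transcripts had a lower share in the JMC45 libraries. The change of the median gene among the 14018 tested was -1.10 on the log2(TPM + 1) scale, and it was -0.02 under median-of-ratios scaling and 0.02 under quantile normalization, which both centre the libraries on their typical gene. Transcripts encoded in mitochondria summed to 204420 and 201240 TPM in vehicle and to 266230 and 293090 TPM in JMC45, and with them left out the median was -1.04. The 6 luminal and line markers summed to 700 and 716 TPM in vehicle and to 306 and 305 TPM in JMC45. HOXB13, KRT18 and FOXA1 were at 10.8%, 20.5% and 23.9% of their vehicle TPM, EPCAM and KRT8 at 79.1% and 80.2%, and KLK3 at 127%. The part of these changes in the members' values was not tested. Where the direction of a member differs between these scalings, that is said where its change is described.

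The 4 promoters printed here are shown because their genes stand at both ends of the response: among members that passed the test and have 1 promoter entry, CSTF2T and INTS12 had the largest decreases on the log2(TPM + 1) scale and INTS1 and NUDT21 the smallest. On plain TPM, INTS6 (9.19-fold lower) came before INTS12 (7.98-fold). Each is the 250 bases before the gene's start from RefSeq (GRCh38.p14), 5′ to 3′ on the gene's strand, with capitals marking a CCAAT box, a GC box or an ETS core on either strand. All 4 lie on the minus strand: CSTF2T chr10:51699596-51699845, INTS12 chr4:105708690-105708939, NUDT21 chr16:56451333-56451582, INTS1 chr7:1504390-1504639.
CSTF2T: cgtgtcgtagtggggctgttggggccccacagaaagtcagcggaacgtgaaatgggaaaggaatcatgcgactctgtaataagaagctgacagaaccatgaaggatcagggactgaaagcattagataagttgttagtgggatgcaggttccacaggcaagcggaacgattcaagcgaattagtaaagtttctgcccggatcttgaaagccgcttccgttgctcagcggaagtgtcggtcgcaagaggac
INTS12: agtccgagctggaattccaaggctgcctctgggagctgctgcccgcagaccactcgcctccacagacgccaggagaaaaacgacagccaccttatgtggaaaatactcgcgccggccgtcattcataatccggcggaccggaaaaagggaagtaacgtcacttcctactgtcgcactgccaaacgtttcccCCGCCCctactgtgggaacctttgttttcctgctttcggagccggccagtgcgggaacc
NUDT21: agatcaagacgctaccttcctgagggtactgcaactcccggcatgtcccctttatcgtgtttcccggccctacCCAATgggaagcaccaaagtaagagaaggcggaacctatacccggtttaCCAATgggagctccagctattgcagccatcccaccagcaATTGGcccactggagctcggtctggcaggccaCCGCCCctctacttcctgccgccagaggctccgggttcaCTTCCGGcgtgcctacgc
INTS1: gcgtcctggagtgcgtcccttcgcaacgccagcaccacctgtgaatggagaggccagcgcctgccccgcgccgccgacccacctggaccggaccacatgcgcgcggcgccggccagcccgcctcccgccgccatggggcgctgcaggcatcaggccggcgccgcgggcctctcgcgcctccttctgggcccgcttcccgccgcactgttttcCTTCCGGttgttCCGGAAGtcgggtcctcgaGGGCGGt

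The CSTF2T window held no match to any motif searched, and its GC content was 50.8%, the lowest of the member promoters. INTS12 had 1 GC box, NUDT21 had 3 CCAAT boxes, 1 GC box and 1 ETS motif, and INTS1 had 2 ETS motifs and 1 GC box at a GC content of 74.0%. RefSeq entries were found for 31 of the 36 members, with 37 promoters in all. The ETS core CCGGAAG was present in 24.3% of the member promoters and in 8.52% of all 35116 promoters of the same length, counting both strands. The GC box GGGCGG was in 64.9% against 42.6%, the CCAAT box in 40.5% against 32.0% and the YY1 motif AAGATGGC in 2.7% against 1.36%. The median GC content was 64.8% in the member promoters and 58.0% in all promoters, and its part in these motif shares was not tested. All promoters were not limited to genes tested here, whereas every member was tested. Members with more than 1 entry, such as PAPOLA, count more than once. TATAAA was in 0 of the 37 member promoters against 10.7% of all, and the NRF1 motif was in 0 against 1.03%. A match is a description of the letters only, and no match says only that the letters are not in this window. No promoter entry was used for INTS5, INTS8, INTS9, INTS10 and CPSF1.

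All 36 members were tested, and 35 of them fell on TPM, with none higher. The test was limma on log2(TPM + 1), with p-values adjusted over all 14018 genes. In the same test 80.7% of all genes were called lower and 4.25% higher, so the direction alone says little about these genes. The members' median change was -1.73 against -1.10 for all tested genes, and 26 of the 36 lay below the general median. On that scale 28 were at least 2-fold lower against 54.6% of all, and 13 (36.1%) at least 4-fold lower against 15.4% of all tested genes. The tested genes include low ones, from a mean of 1 TPM, whose changes this scale understates. The lowest member in vehicle, INTS2, was at 5.45 TPM, and the shares were not matched for level. Both JMC45 libraries were below both vehicle libraries for 35 members, the exception being CPSF1, and for 85.7% of all tested genes. Under median-of-ratios scaling 22 members fell and 10 rose, against 35.5% and 34.9% of all genes, and under quantile normalization 23 fell and 2 rose, against 32.8% and 33.6%.

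**Figure D1:**
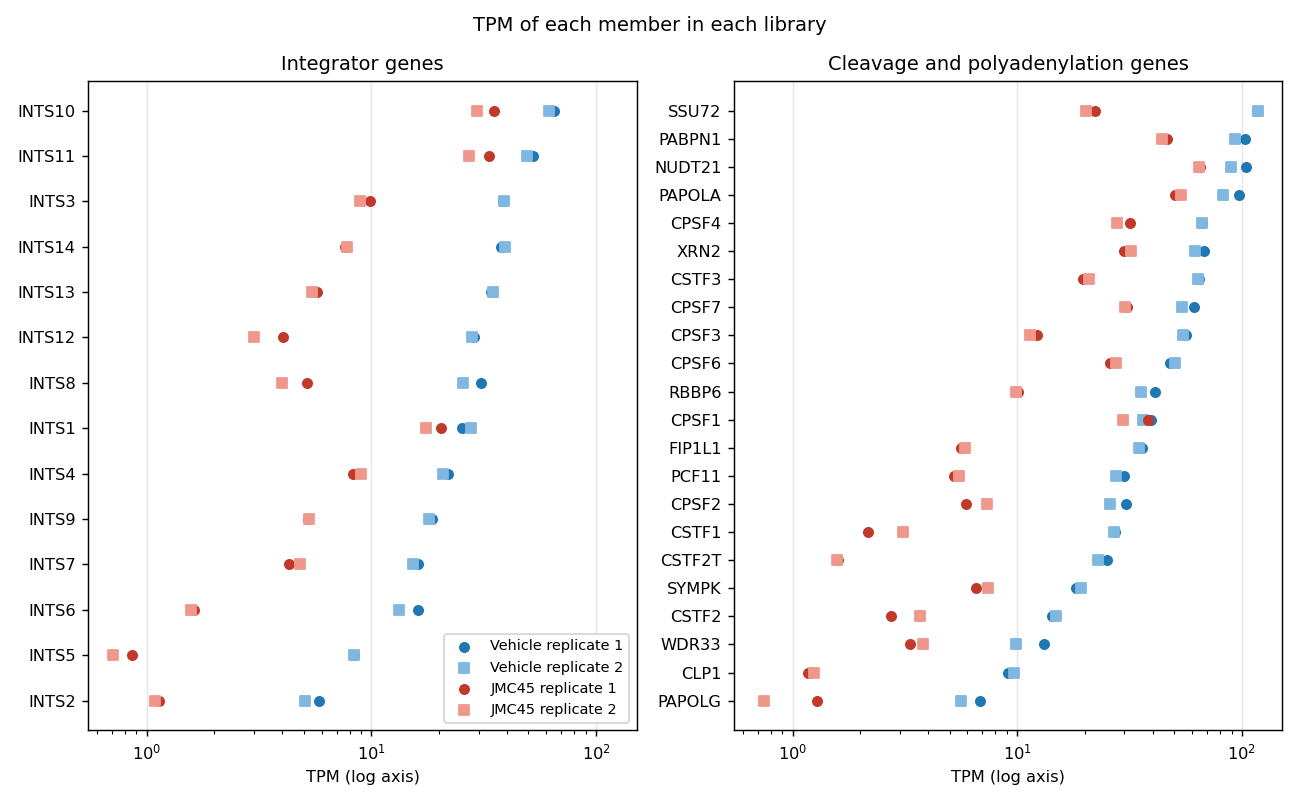
TPM on a log axis for each of the 14 Integrator genes (left) and the 22 cleavage and polyadenylation genes (right), with 1 point per library, vehicle in blue and JMC45 in red, ordered by the vehicle mean. On TPM the red points lie left of the blue ones for every gene except CPSF1, by distances that run from 1.4-fold for INTS1 to 15.1-fold for CSTF2T, and 13 genes have a value above 0 under at least 1 other scaling.

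All 14 Integrator genes fell on TPM (median log2 change -1.78), whereas 10 fell and 3 rose under median-of-ratios scaling and 9 fell and 1 rose under quantile normalization. Of all tested genes 80.7% fell on TPM. Under median-of-ratios scaling 35.5% of all tested genes fell and 34.9% rose, and under quantile normalization 32.8% fell and 33.6% rose. The summed TPM of the Integrator genes was 399.5 and 386.4 in the vehicle libraries and 142.6 and 125.9 in the JMC45 libraries, or 34.2% of the vehicle mean. The decrease was uneven between subunits. INTS12, a small PHD finger subunit, measured 28.5 and 27.9 TPM in vehicle and 4.06 and 3.01 TPM in JMC45 (log2 change -2.70, SE 0.14, limma adjusted p = 1.64e-05). INTS6, which links the complex to PP2A, measured 16.1 and 13.3 TPM in vehicle and 1.63 and 1.57 TPM in JMC45 (log2 change -2.59, SE 0.14). INTS1, the large scaffold subunit, measured 25.2 and 27.9 TPM in vehicle and 20.4 and 17.6 TPM in JMC45. The groups did not overlap for any of the 3, but those of INTS1 lay close together: its log2 change was -0.47 (SE 0.11, adjusted p = 0.00663 in limma), it did not pass without vehicle replicate 2 (-0.40, adjusted p = 0.0587), and it was 0.83 under median-of-ratios scaling and 0.72 under quantile normalization.

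Sorted by where the subunits sit in the complex, a grouping from textbook structure made after the values were seen, the lowest median was that of the subunits around the phosphatase (-2.39, against -2.19 for the auxiliary module, -1.59 for the backbone and -1.22 for the cleavage module). INTS3 and INTS12 were given no module, and INTS12 (-2.70) had a larger decrease than any subunit that was. The difference between modules was not tested. INTS5, INTS6 and INTS8, which hold PP2A, had log2 changes of -2.39, -2.59 and -2.39, and all 3 also fell under both other scalings. The INTS8 value is less certain, because it shares exonic bases with CCNE2, as described below. INTS5 stood at 8.35 and 8.41 TPM in vehicle and at 0.86 and 0.71 TPM in JMC45, the lowest JMC45 level of the 36 members. In the cleavage module, INTS4 and INTS9, the partners of the nuclease, had changes of -1.22 and -1.63, and INTS11, the endonuclease itself, went from 52.6 and 49.4 TPM to 33.3 and 27.1 TPM (log2 change -0.74, SE 0.11). INTS9 also fell under both other scalings, whereas INTS4 had values of 0.04 and 0.09 there and INTS11 values of 0.58 and 0.23, of which the first passed as an increase. The 3 subunits of the cleavage module made up 23.3% and 22.8% of summed Integrator TPM in vehicle and 32.8% and 32.9% in JMC45. Most of that gain was INTS11, whose mean share went from 13.0% to 22.5%, against 5.44% to 6.49% for INTS4 and 4.66% to 3.93% for INTS9. The backbone also gained, from 12.1% to 18.4%, with INTS1 its only subunit to do so. INTS5, INTS6 and INTS8 together went from 13.9% and 12.2% to 5.37% and 5.0%. Such shares within a library do not depend on a single factor per library, as in median-of-ratios scaling, but quantile normalization would change them.

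The remaining subunits spanned most of this range. INTS2 and INTS7 of the backbone fell by 1.61 and 1.59, and the INTS7 change was -0.22 and did not pass under quantile normalization (adjusted p = 0.122). In the auxiliary module, INTS13 and INTS14 fell by 2.42 and 2.19, whereas INTS10, at 64.7 and 61.9 TPM the most abundant Integrator transcript in vehicle, measured 34.98 and 29.6 TPM in JMC45, with a log2 change of -0.95 on TPM, 0.37 under median-of-ratios scaling and -0.03 under quantile normalization. INTS3, which is shared with the single-stranded DNA-binding SOSS complex, fell by 1.94. INTS10, INTS11 and INTS1 together gained share: INTS10 made up 16.1% of summed Integrator TPM in vehicle and 24.0% in JMC45, INTS11 13.0% and 22.5%, and INTS1 6.76% and 14.1%, each as the mean of 2 libraries.

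**Figure D2:**
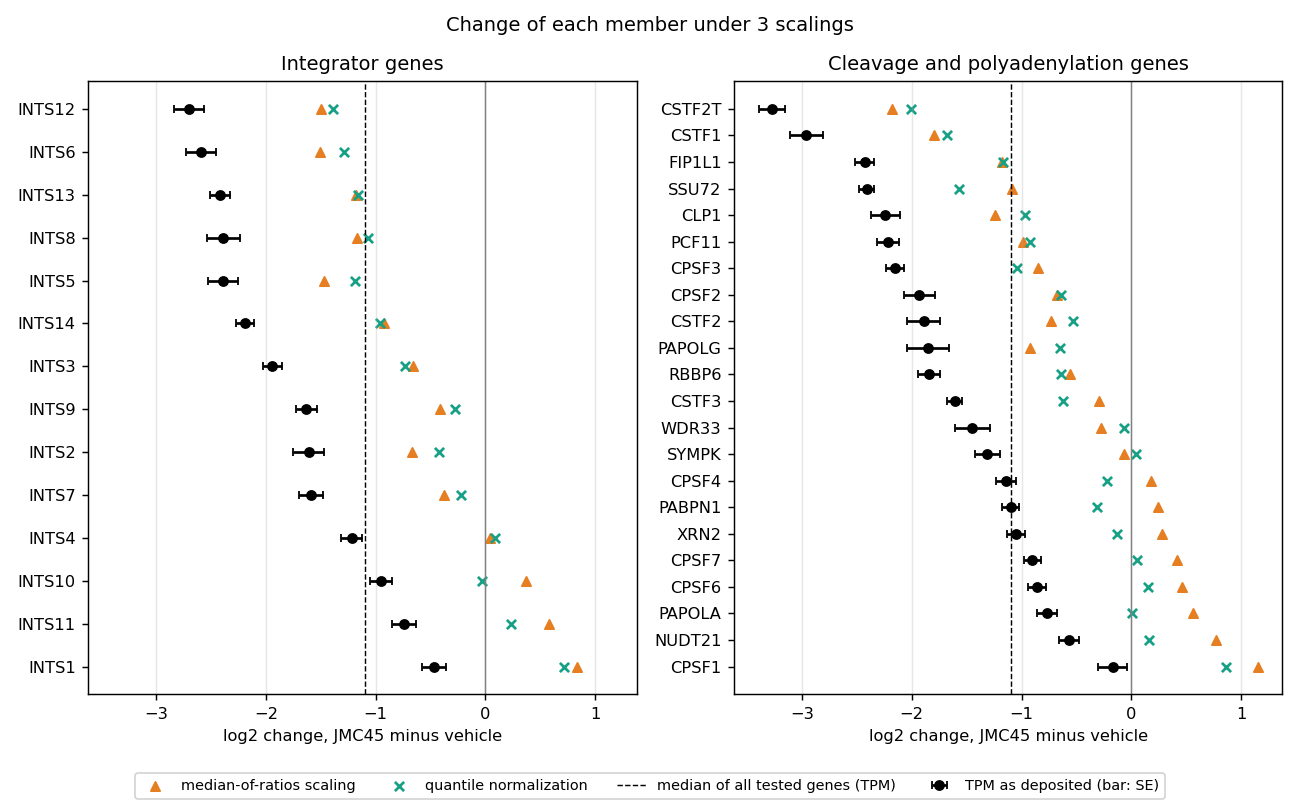
Log2 change of each member, JMC45 minus vehicle, on deposited TPM (black, bars are the SE from limma), under median-of-ratios scaling (triangles) and under quantile normalization (crosses), with the median of all tested genes on TPM (-1.10) as a dashed line. CSTF2T, CSTF1, INTS12 and INTS6 stay left of 0 under all 3 scalings, while CPSF1, INTS1, INTS4, INTS11, NUDT21, CPSF6, CPSF7 and PAPOLA cross to the right under both rescalings.

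Of the 7 genes of CPSF and its scaffold, 6 fell on TPM and 1 did not pass. Under median-of-ratios scaling 3 fell and 1 rose, and under quantile normalization 4 fell and 1 rose. For all tested genes the shares were 80.7% lower on TPM, 35.5% lower and 34.9% higher under median-of-ratios scaling, and 32.8% and 33.6% under quantile normalization. FIP1L1, which tethers poly(A) polymerase, measured 35.97 and 34.7 TPM in vehicle and 5.64 and 5.86 TPM in JMC45 (log2 change -2.43, SE 0.09, limma adjusted p = 1.03e-05). CPSF3, the endonuclease that cuts the pre-mRNA, measured 56.2 and 54.95 TPM in vehicle and 12.2 and 11.4 TPM in JMC45 (log2 change -2.15, SE 0.08). Neither pair of groups came near to overlapping, and both genes fell under all 3 scalings. CPSF1, the large subunit on which the signal-reading module is built, measured 39.6 and 36.1 TPM in vehicle and 38.2 and 29.5 TPM in JMC45. It was the 1 member whose groups overlapped, because JMC45 replicate 1 lay between the vehicle libraries. Its change of -0.17 (SE 0.13) did not pass (limma adjusted p = 0.278), was -0.35 and passed without JMC45 replicate 1, was 0.02 without JMC45 replicate 2, and was 1.15 and 0.86, passing as an increase, under median-of-ratios scaling and quantile normalization. Of the others, CPSF2, the inactive partner of CPSF3, fell by 1.93, WDR33, which contacts the AAUAAA signal, by 1.45, the scaffold SYMPK by 1.31 and CPSF4, a zinc finger protein that also contacts the signal, by 1.14. The WDR33 and SYMPK calls were lost under both rescalings, where SYMPK was at -0.07 and 0.04, the second of opposite sign. CPSF4 had values of 0.18 and -0.22 there.

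The 4 CstF genes all fell under all 3 scalings. Of all tested genes 80.7% fell on TPM, 35.5% under median-of-ratios scaling and 32.8% under quantile normalization. On the log2(TPM + 1) scale 2 of the CstF genes had the largest decreases of any member. On plain TPM INTS5 (10.7-fold lower) came before CSTF1 (10.3-fold). CSTF2T, an intronless relative of CSTF2 that encodes the tau form of the RNA-binding subunit, measured 25.2 and 22.8 TPM in vehicle and 1.60 and 1.58 TPM in JMC45 (log2 change -3.27, SE 0.12, limma adjusted p = 1e-05), which put it at percentile 0.692 of all tested genes. CSTF1, the subunit built of WD repeats, measured 27.2 and 27.0 TPM in vehicle and 2.17 and 3.10 TPM in JMC45 (log2 change -2.96, SE 0.15). CSTF2 measured 14.2 and 14.8 TPM in vehicle and 2.73 and 3.70 TPM in JMC45 (log2 change -1.89, SE 0.15). CSTF3, the dimeric core of the complex, had the smallest decrease of the 4, from 64.4 and 63.6 TPM to 19.7 and 20.9 TPM (log2 change -1.61, SE 0.07). In vehicle CSTF2T was the more abundant of the 2 RNA-binding paralogs, and in JMC45 the less abundant: the ratio of CSTF2T to CSTF2 TPM was 1.77 and 1.54 in the vehicle libraries and 0.586 and 0.427 in the JMC45 libraries. The ratio of CSTF3 to CSTF1 moved from 2.36 and 2.35 to 9.09 and 6.74.

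The 3 genes of CFI, the complex that binds UGUA elements and steers the choice between poly(A) sites, had smaller decreases. NUDT21, its RNA-binding subunit, measured 104 and 89.4 TPM in vehicle and 64.9 and 64.7 TPM in JMC45 (log2 change -0.57, SE 0.09, limma adjusted p = 0.00118). CPSF6 measured 48.0 and 50.5 TPM in vehicle and 25.9 and 27.5 TPM in JMC45 (log2 change -0.86, SE 0.08). CPSF7, the alternative partner of NUDT21, measured 61.3 and 54.3 TPM in vehicle and 30.8 and 30.2 TPM in JMC45 (log2 change -0.90, SE 0.08). All 3 fell on TPM with groups that did not overlap, all 3 rose under median-of-ratios scaling (0.77, 0.46 and 0.42), and none passed under quantile normalization (0.16, 0.15 and 0.05). Of all tested genes 80.7% fell on TPM and 34.9% rose under median-of-ratios scaling, and 85.7% had both JMC45 libraries below both vehicle libraries. NUDT21 ranked 3 of the 36 members by level in vehicle and 1 in JMC45. CFI held 19.8% and 19.4% of the summed TPM of the 22 cleavage and polyadenylation genes in vehicle and 29.1% and 29.7% in JMC45, whereas CstF held 12.2% and 12.8% and then 6.28% and 7.11%.

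Both CFII genes fell under all 3 scalings, against 80.7% of all tested genes on TPM, 35.5% under median-of-ratios scaling and 32.8% under quantile normalization. PCF11, which binds the polymerase tail and promotes termination, measured 29.9 and 27.6 TPM in vehicle and 5.24 and 5.49 TPM in JMC45 (log2 change -2.22, SE 0.10, limma adjusted p = 1.24e-05). CLP1, its RNA kinase partner, measured 9.14 and 9.68 TPM in vehicle and 1.17 and 1.24 TPM in JMC45 (log2 change -2.24, SE 0.13). Together they held 17.2% of their vehicle TPM in JMC45, against 59.8% for CFI and 38.7% for the CPSF genes. The ratio of NUDT21 to PCF11 was 3.49 and 3.24 in vehicle and 12.4 and 11.8 in JMC45.

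The enzymes that make and bind the tail differed from each other. PAPOLA, the main nuclear poly(A) polymerase, measured 96.8 and 82.4 TPM in vehicle and 50.2 and 53.5 TPM in JMC45, with a log2 change of -0.77 (SE 0.09), which was 0.56 under median-of-ratios scaling and 0.01 under quantile normalization. PAPOLG, its paralog, measured 6.81 and 5.63 TPM in vehicle and 1.28 and 0.75 TPM in JMC45 (log2 change -1.85, SE 0.19), and fell under all 3 scalings. PAPOLA transcripts outnumbered those of PAPOLG 14.2 and 14.6 times in vehicle and 39.2 and 71.3 times in JMC45, where the libraries lay far apart. RBBP6, a ubiquitin ligase that activates cleavage, went from 41.0 and 35.6 TPM to 10.04 and 9.92 TPM (log2 change -1.84, SE 0.10). PABPN1, the nuclear poly(A)-binding protein, was at percentile 50.2 of all tested genes: its log2 change was -1.10 on TPM (103 and 93.0 TPM against 46.4 and 44.2 TPM), 0.24 under median-of-ratios scaling and -0.31 under quantile normalization, each past the threshold.

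SSU72, a phosphatase of the polymerase tail, was the most abundant member in vehicle and the 11th in JMC45. It measured 117 TPM in both vehicle libraries and 22.1 and 20.2 TPM in JMC45 (log2 change -2.41, SE 0.07, limma adjusted p = 9.82e-06), and it fell under all 3 scalings. XRN2, the exonuclease that follows cleavage, measured 68.1 and 61.5 TPM in vehicle and 29.8 and 31.9 TPM in JMC45, with a log2 change of -1.05 on TPM, 0.28 under median-of-ratios scaling and -0.13 under quantile normalization. The XRN2 to SSU72 ratio went from 0.584 and 0.524 to 1.34 and 1.58.

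Ratios between members that work side by side were compared within each library on TPM, since a single factor per library does not enter them. Quantile normalization, which is not a single factor, would change them. The pairs were chosen after their values were seen, and with 2 libraries against 2 an exact permutation test cannot go below p = 0.33, so they are given as values. The nucleases of the 2 machineries were at near-equal levels in vehicle, with an INTS11 to CPSF3 ratio of 0.936 and 0.899, and INTS11 was at 2.73 and 2.39 times the level of CPSF3 in JMC45. Each nuclease against its inactive partner behaved differently: INTS11 to INTS9 moved from 2.83 and 2.73 to 6.35 and 5.15, while CPSF3 to CPSF2 was 1.85 and 2.12 in vehicle and 2.07 and 1.54 in JMC45, with overlapping groups. CPSF1 and FIP1L1, which sit in 1 module, were at a ratio of 1.10 and 1.04 in vehicle and 6.78 and 5.04 in JMC45. INTS6 stood at 2.31 and 2.5 times the level of its paralog INTS6L in vehicle and at 1.15 and 1.25 times in JMC45. Other pairs were computed but not drawn, given here as vehicle and JMC45 means. CPSF6 to NUDT21 was at 0.513 and 0.412, CPSF7 to NUDT21 at 0.598 and 0.471, and PABPN1 to PAPOLA at 1.1 and 0.876. PPP2CB to PPP2CA was at 0.537 and 0.797, and INTS1 to INTS12 at 0.941 and 5.42.

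**Figure D3:**
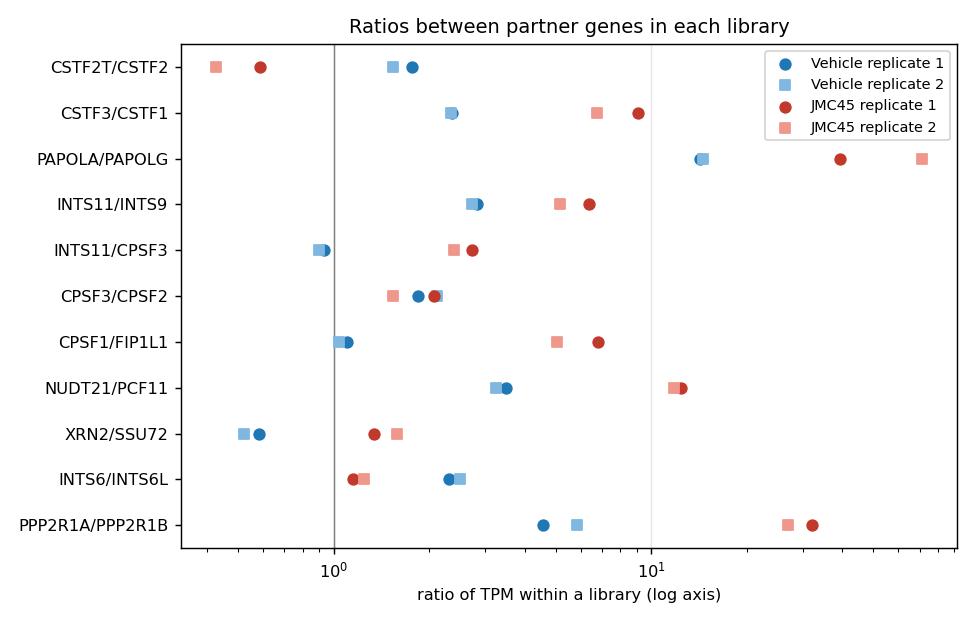
Ratio of TPM between 2 genes within each library, on a log axis, with 1 point per library, vehicle in blue and JMC45 in red, and a line at 1. The pairs were chosen after their values were seen, so how many of them moved says nothing about partner genes in general. The CPSF3 to CPSF2 ratio overlaps between groups. For the other 10 pairs drawn the JMC45 libraries lie to 1 side of the vehicle libraries. CSTF2T to CSTF2 crosses from above 1 to below it.

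The number of exons was compared with the change because CSTF2T, with the largest decrease, has a single exon. INTS5 and CLP1, the 2 members with 2 to 4 exons, fell by 2.39 and 2.24. The 12 members with over 20 exons had changes from -2.39 to -0.17 with a median of -1.38. The medians between did not follow exon number, with -1.12 for the 8 members with 5 to 10 exons and -1.93 for the 13 with 11 to 20. CPSF1 (38 exons) and INTS1 (48 exons) had the smallest changes of all members. Over the 36 members, Spearman's rho between exon number and change was 0.38, and over the 11530 tested protein-coding genes with a GENCODE model it was 0.10. For transcript length it was 0.20 and -0.14, of opposite sign, for genomic span 0.09 and 0.05, and for the mean vehicle TPM 0.36 and 0.02. These are correlations across genes that share the same 4 libraries, given as descriptions. Among all tested protein-coding genes the median change was -1.85 for the 239 single-exon genes, -1.41 for 2 to 4 exons and -1.04 for over 20 exons, so CSTF2T, INTS5 and CLP1 each lay below the median of their own class.

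**Figure D4:**
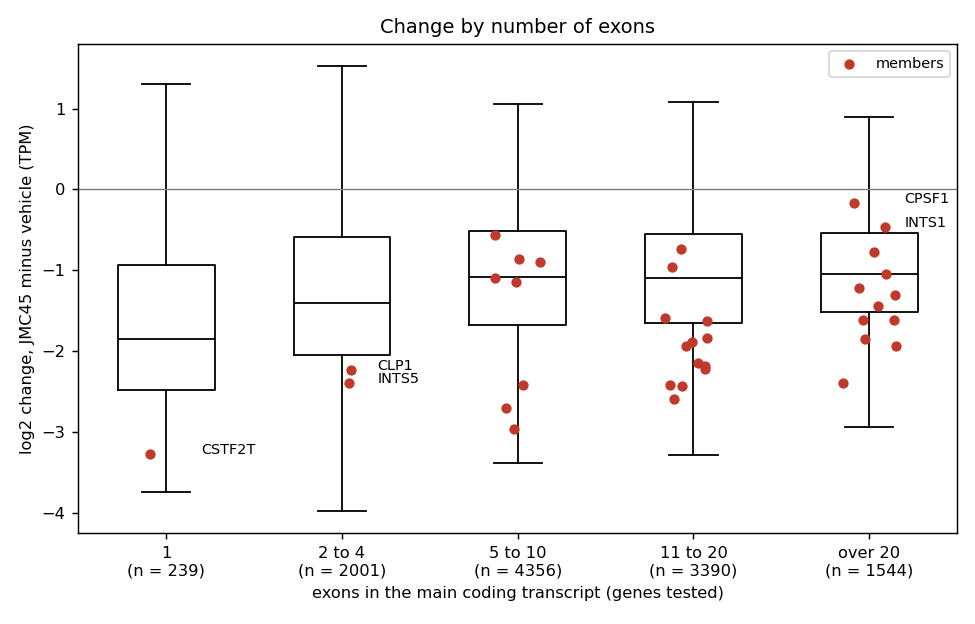
Log2 change on TPM, JMC45 minus vehicle, for all tested protein-coding genes by the number of exons of the main coding transcript (boxes are quartiles with the median, whiskers reach 1.5 times the interquartile range, more distant genes not drawn), with the 36 members in red. The single-exon CSTF2T lies below the lower quartile of its class (-2.48), and CPSF1 and INTS1 lie above the upper quartile of theirs (-0.54).

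Several members share exonic bases with another gene, and whether strand was used in counting is not stated in the labels, so these values are less certain. The largest shared stretch among partners above 5 TPM is between INTS8 and CCNE2, a cyclin gene on the opposite strand, 20.7% of the INTS8 exonic bases, and CCNE2 fell by 3.98. INTS12 shares 8.49% with GSTCD (log2 change -1.52), CSTF3 5.83% with LINC00294 (-1.14), INTS3 4.35% with SLC27A3 on the same strand (-1.88) and INTS4 3.97% with AAMDC (-0.30). PABPN1 shares 16.8% with the read-through gene BCL2L2-PABPN1, which was at 3.48 TPM in vehicle. The part of these overlaps in the members' values was not tested.

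Genes that act with these machineries were tallied from 6 lists, of which 78 of 79 genes were tested, 74 (94.9%) fell and none rose on TPM, with a median of -1.72. Set against the 80.7% of all tested genes called lower, the lists ran from 88.9% for the Integrator partners to 100% for the termination factors and the regulators of poly(A) site choice. The lists were chosen with earlier results of these data known, so this comparison is a description only. Under median-of-ratios scaling 48 fell and 17 rose, against 35.5% and 34.9% of all tested genes. Under quantile normalization 51 fell and 8 rose, against 32.8% and 33.6%. Of 9 Integrator partners 8 fell on TPM (3 rose and 4 fell under median-of-ratios scaling). INIP of the SOSS complex (-2.64), the PP2A scaffold PPP2R1B (-2.25) and INTS15 (-2.20) led them. The other PP2A scaffold, PPP2R1A, was at 103 ± 1.32 TPM with vehicle and at 99.5 ± 7.5 TPM with JMC45 (SD, n = 2) and did not pass on TPM, but rose under both rescalings (1.29 and 0.57), and the ratio of PPP2R1A to PPP2R1B went from 4.57 and 5.83 to 32.1 and 26.9. The catalytic subunit genes PPP2CA and PPP2CB had changes of -1.57 and -1.0, the second turning to 0.34 under median-of-ratios scaling. NABP1 was too low to be tested.

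Over all tested genes 80.7% fell on TPM, and 35.5% fell and 34.9% rose under median-of-ratios scaling. Of 13 genes for transcription and export of small nuclear RNAs, the class of RNA that Integrator cleaves, 12 fell on TPM (10 fell and 2 rose under median-of-ratios scaling). SNAPC2 of the promoter-binding complex (-2.70), the cap methylase TGS1 (-2.62) and the export adaptor PHAX (-2.53) had the largest changes. Of 11 genes for histone mRNA 3′ ends and the cap-binding complex 10 fell (7 fell and 3 rose under median-of-ratios scaling), with NPAT (-2.15), the nuclease ERI1 (-2.14) and CASP8AP2, the FLASH protein (-2.13), in front. The stem-loop binding protein gene SLBP also had a value of -2.13, while SRRT, which joins the cap to 3′ end formation, was at 82.0 ± 1.78 and 77.6 ± 1.17 TPM and did not pass on TPM, but rose under both rescalings (1.26 and 0.64). All 14 genes for termination factors and readers of the polymerase tail fell on TPM (median -1.87), and 9 fell and none rose under median-of-ratios scaling. WDR82 (-2.89), ZC3H4 (-2.85), which together restrain non-coding transcription, and the termination ATPase TTF2 (-2.47) led that list.

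The shares of all tested genes to set beside the remaining lists are again 80.7% lower on TPM, and 35.5% lower and 34.9% higher under median-of-ratios scaling. In nuclear poly(A) RNA decay 13 of 14 genes fell on TPM (9 fell and 4 rose under median-of-ratios scaling). The exosome subunit EXOSC3 went from 48.0 ± 4.21 to 2.93 ± 0.778 TPM (log2 change -3.65), and RBM7 (-3.32) and ZCCHC8 (-2.92), partners in the NEXT complex that targets RNA to the exosome, followed. PABPC1, the cytoplasmic poly(A)-binding protein, was at 528 ± 9.26 TPM in vehicle and 571 ± 12.4 TPM in JMC45. It did not pass on TPM (0.11), but rose under median-of-ratios scaling (1.46) and quantile normalization (0.3). All 17 regulators of poly(A) site choice fell on TPM (9 fell and 5 rose under median-of-ratios scaling). PPP1R10, the PNUTS scaffold (-4.35), PAF1 (-2.58) and the kinase CDK13 (-2.53) led them, and of the U1 proteins that guard against early polyadenylation, SNRPA had a change of -1.90, SNRPC -0.71 and SNRNP70 -0.41, the last 2 turning to 0.63 and 0.93 under median-of-ratios scaling and to -0.21 and 0.21 under quantile normalization.

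**Figure D5:**
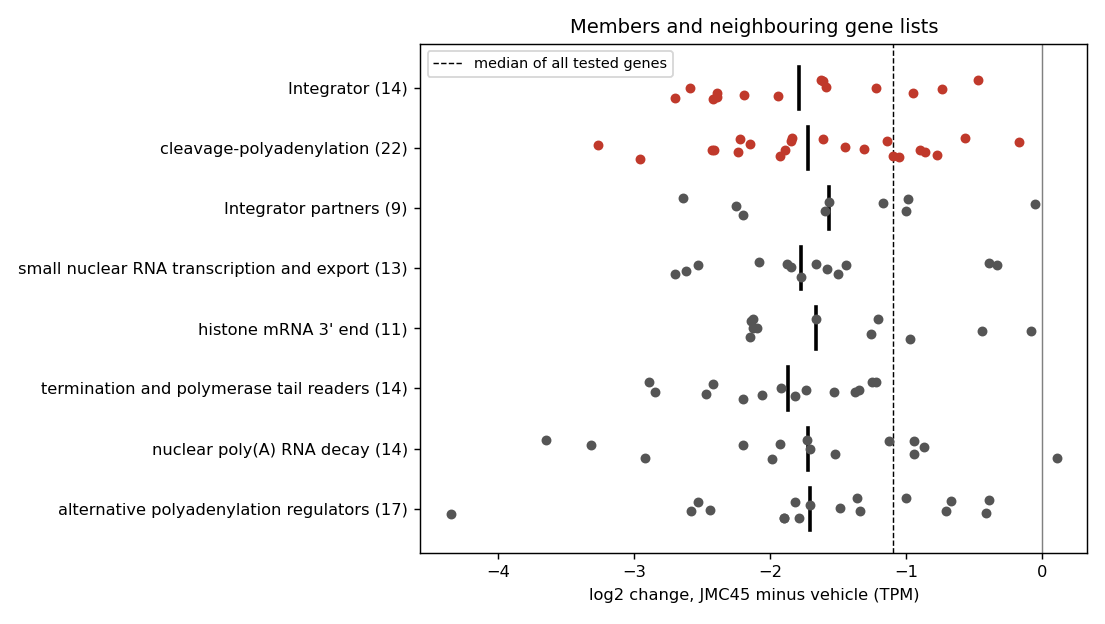
Log2 change on TPM, JMC45 minus vehicle, of every tested gene in the member lists (red) and in 6 lists of genes that act with them (grey), with each list's median as a black bar, the number of genes in brackets, and the median of all tested genes (-1.10) as a dashed line. The medians of the 8 lists lie between -1.87 and -1.57, all below the dashed line, and 4 of the grey genes did not pass the test. All lists were chosen with earlier results of these data known.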

How the data were processed

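The authors deposited 1 table of TPM values, a column per library, per the file headers. Tools listed per the submitters' processing notes are fastp, HISAT2 and StringTie; no version or role is listed. The labels' protocols describe a stranded oligo(dT) library kit. For the genome build, the annotation and the use of strand in counting: not given in the sources used here. The table held 63241 genes and 50 lines without values, which were left out, and 62666 genes had a symbol. Columns were assigned to libraries by name and number. The 14018 genes whose mean over the libraries reached 1 TPM were tested as log2(TPM + 1) with limma 3.58.1 in R 4.3.3 (two-sided, intensity trend, no replicate block), with Benjamini-Hochberg adjustment over all genes tested and a threshold of 0.05. This scale understates changes of low genes. Lists, medians and figures were made in Python 3.11.15. Alternatives were a pseudocount of 0.1, no filter, a mean TPM of at least 5, 4 scalings (median-of-ratios, quantile, without the 37 mitochondrially encoded genes, and with their total held equal), no trend, a replicate block, and each library left out. The fit was tested on simulated data in which most genes were left unchanged. That test does not cover a shift of most genes, as seen in these libraries. Members and lists were chosen with earlier results of these data known. All members are named; values per library are given for members that did not pass and, in each role group, the 2 largest and the smallest changes. INTS5, INTS10, INTS11, CSTF2 and PABPN1 were added after their values were seen, as were SLBP, SRRT, PABPC1 and the PP2A and U1 genes beyond the 3 with the largest changes in each list. Exon numbers come from the principal coding transcript in GENCODE 29. Some cell type markers of the list are not reported here.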

Additional observations from a re-analysis of the deposited data

How the results depend on the processing

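The counts of members called lower or higher depend on the scaling between libraries and little on the other settings. The 14 Integrator genes lower on TPM became 9 under quantile normalization, and the 0 that were higher became 3 under median-of-ratios scaling and 1 under quantile normalization. The 21 cleavage and polyadenylation genes lower on TPM became 12 under median-of-ratios scaling, and the 0 higher became 7 there and 1 under quantile normalization. For all tested genes the shares lower and higher were 80.7% and 4.25% on TPM. They were 35.5% and 34.9% under median-of-ratios scaling and 32.8% and 33.6% under quantile normalization. With a library left out, 13 to 14 Integrator genes and 21 to 22 cleavage and polyadenylation genes were lower and 0 were higher. Under median-of-ratios scaling the change was above 0 for INTS1 (0.83), INTS4 (0.04), INTS10 (0.37), INTS11 (0.58), CPSF1 (1.15), CPSF4 (0.18), NUDT21 (0.77), CPSF6 (0.46), CPSF7 (0.42), PAPOLA (0.56), PABPN1 (0.24) and XRN2 (0.28). Under quantile normalization it was above 0 for INTS1 (0.72), INTS4 (0.09), INTS11 (0.23), CPSF1 (0.86), SYMPK (0.04), NUDT21 (0.16), CPSF6 (0.15), CPSF7 (0.05) and PAPOLA (0.01). CPSF1 was at 0.02 without JMC45 replicate 2 and at -0.35, passing, without JMC45 replicate 1, and passed with the mitochondrially encoded total held equal (-0.61). Both rescalings centre the median gene by construction, and the cause of each gene's own difference was not tested. The general median also moved with other settings. It was -1.1 in the main test and -1.13 at a mean TPM of at least 5. It was -1.34 with a pseudocount of 0.1 and -0.3 with no filter. Relative to it, INTS4 went from -0.11 to 0.04 and INTS2 from -0.51 to -0.85 at that pseudocount. INTS1 went from 0.64 to -0.17 with no filter. The 26 of 36 members below the general median is the count under the main settings. With the replicate number as a block, 14 Integrator and 21 cleavage and polyadenylation genes were lower; over all tested genes the deviations of same-numbered libraries correlated at -0.0471, so the numbers were not taken to pair the samples. The depth is unknown, so the counting error of the lowest members in JMC45, PAPOLG and INTS5, is not known. Like every member, they were measured in 2 libraries per group.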
